A study of Mus musculus with 6 samples.

Results

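The Klk1 cluster of the mouse holds the tissue kallikrein gene Klk1 and the Klk1b genes that arose from it by duplication. The 10 genes described here are Klk1, Klk1b5, Klk1b8, Klk1b11, Klk1b16, Klk1b21, Klk1b22, Klk1b24, Klk1b26 and Klk1b27, chosen by name, and all 10 were found among the 34745 genes of the deposited table. RNA was sequenced from the prostates of male C57BL/6 mice that were 6 to 8 weeks old when they entered the study. Mice of the T + E2 group (3 mice) had carried subcutaneous slow-release pellets of testosterone and estradiol for 12 weeks. The pellet was replaced with a new one each month. Control mice (CON group, 3 mice) had a skin incision that was closed again and received no pellet. Alongside the pellet replacements, the paper describes the same operation as before for the control mice. No castration is described, so the comparison is between added testosterone together with estradiol and the animal's own hormones, and the effects of testosterone and of estradiol cannot be told apart. The 3 mice of a group are separate animals, and the lobes of the prostate that were sampled are not given in the sources used here.

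Tissue kallikreins are secreted serine proteases. Klk1 itself cuts kininogen to release a kinin, a short peptide that widens vessels and acts through the bradykinin receptors. In the mouse its duplicated relatives have taken on other substrates, and several are known from the submandibular gland, where androgens raise them and where some members bind or process growth factors such as epidermal growth factor. Klk1b22 and Klk1b26 have been described with epidermal growth factor, and Klk1b21, Klk1b24 and Klk1b27 from the mouse testis. Kallikreins of the wider family, of which human prostate-specific antigen is one, are abundant in the human prostate.

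Klk1b24 supplied more counts than any other member in the T + E2 prostates, and it was 35.6-fold higher after T + E2 than in control mice. Klk1b21 and Klk1b27 were detected in every T + E2 mouse and were at or under 2 counts in every CON mouse. Klk1b5 showed the same order at far fewer counts. Klk1 itself, Klk1b11 and Klk1b8 overlapped between the groups, and Klk1b16, Klk1b22 and Klk1b26 had at most 1 count in any mouse.

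All 10 genes lie on the plus strand of chromosome 7 within 279 kb (GRCm38, chr7:43950664-44229618), and their positions in the deposited table are the same as in GENCODE release M21. Each main transcript has 5 exons. Klk1b24 (ENSMUSG00000063713) lies at chr7:44188236-44192455, Klk1b21 (ENSMUSG00000066516) at chr7:44102328-44106583 and Klk1b27 (ENSMUSG00000063177) at chr7:44052290-44056712. Klk1b22 and Klk1b16 lie between Klk1b21 and Klk1b24, while no other member lies between Klk1b27 and Klk1b21. An annotated gene on the other strand overlaps Klk1 (Gm10109) and Klk1b8 (Gm44756), and none overlaps the other 8.

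Klk1b24, Klk1b27 and Klk1b21, the members called higher in the main test, share a stretch of promoter sequence that the other members, Klk1b5 included, do not have in the same form, so the 250 bases before their annotated start are shown first. The sequences are from RefSeq on GRCm38.p6, plus strand, 5′ to 3′, and the window was available for all 10 members. Capitals mark an unbroken stretch of 89 bases that is identical in the 3 windows.
Klk1b24, chr7:44187986-44188235: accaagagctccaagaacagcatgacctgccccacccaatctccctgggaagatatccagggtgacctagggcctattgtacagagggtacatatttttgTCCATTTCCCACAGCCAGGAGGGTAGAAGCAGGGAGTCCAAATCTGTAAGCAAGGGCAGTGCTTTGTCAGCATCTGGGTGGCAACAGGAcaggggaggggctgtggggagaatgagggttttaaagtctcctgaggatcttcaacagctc
Klk1b27, chr7:44052040-44052289: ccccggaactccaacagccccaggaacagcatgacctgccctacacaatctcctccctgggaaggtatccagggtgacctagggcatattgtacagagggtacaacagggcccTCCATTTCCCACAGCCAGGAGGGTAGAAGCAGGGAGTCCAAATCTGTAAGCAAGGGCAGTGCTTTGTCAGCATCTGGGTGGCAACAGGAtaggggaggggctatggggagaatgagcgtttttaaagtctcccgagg
Klk1b21, chr7:44102042-44102291: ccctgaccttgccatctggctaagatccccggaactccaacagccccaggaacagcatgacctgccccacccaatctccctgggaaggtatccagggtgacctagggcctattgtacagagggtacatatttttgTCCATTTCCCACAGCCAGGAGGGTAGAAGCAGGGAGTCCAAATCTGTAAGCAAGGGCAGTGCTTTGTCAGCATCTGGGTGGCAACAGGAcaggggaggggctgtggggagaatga

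The stretch begins 150 bases before the RefSeq start of Klk1b24, 137 before that of Klk1b27 and 115 before that of Klk1b21. Among 32851 promoter windows of the same length in the reference it occurred in 3, those of Klk1b24, Klk1b27 and Klk1b21. The stretch was sought as the longest run common to these 3 windows, so its presence in them was fixed by that search. No such search was made for other sets of members. The windows of the 3 genes share other exact runs as well, of which tattgtacagagggtaca was also found in no window but these 3. The other members carry diverged counterparts of the stretch at the matching place. The closest and the more distant of them are shown to let the differences be seen, with the bases that differ from the shared stretch in capitals and with bases missing from a counterpart not marked.
Klk1b11, chr7:43995718-43995805: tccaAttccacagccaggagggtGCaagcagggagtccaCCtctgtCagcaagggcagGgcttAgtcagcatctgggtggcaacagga
Klk1b26, chr7:44012534-44012620: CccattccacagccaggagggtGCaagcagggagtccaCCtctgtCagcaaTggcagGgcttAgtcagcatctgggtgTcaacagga
Klk1b16, chr7:44137133-44137219: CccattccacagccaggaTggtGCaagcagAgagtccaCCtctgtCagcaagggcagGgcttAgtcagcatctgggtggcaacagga
Klk1b5, chr7:44216311-44216399: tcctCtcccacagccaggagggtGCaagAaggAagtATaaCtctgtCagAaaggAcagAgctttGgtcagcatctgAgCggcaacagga
Klk1b22, chr7:44112512-44112600: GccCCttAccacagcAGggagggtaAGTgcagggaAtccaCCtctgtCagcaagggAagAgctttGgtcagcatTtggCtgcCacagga
Klk1b8, chr7:43950501-43950590: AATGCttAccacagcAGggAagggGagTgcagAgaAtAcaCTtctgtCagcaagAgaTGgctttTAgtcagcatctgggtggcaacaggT

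Identity with the shared stretch, counted over aligned columns with gaps, was 89.9% for Klk1b11, 86.5% for Klk1b16 and Klk1b26, 82.2% for Klk1b5, 77.8% for Klk1b22, 76.7% for Klk1 and 72.8% for Klk1b8. The counterpart of Klk1 runs past its RefSeq start and is not printed. RefSeq places the start of Klk1b5, Klk1b16 and Klk1b26 inside the span that the deposited table gives these genes. Over the aligned parts of the 300-base windows, which also hold the first 50 bases after the start, the 3 pairs among Klk1b21, Klk1b24 and Klk1b27 were 89.7 to 97.7% identical. The 21 pairs of 1 of these genes with another member were 78.7 to 85.3% identical, and the 21 pairs among the other 7 members 76.9 to 91.6%. The transcripts of the 3 genes were 92.6 to 93.3% identical to each other, 83.4 to 90.8% identical to those of the other 7, and the other 7 were 82.3 to 94.4% identical among themselves. These sequences share descent, so the pairs are not independent, and the comparison was made with the expression of the genes known.

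**Figure D1:**
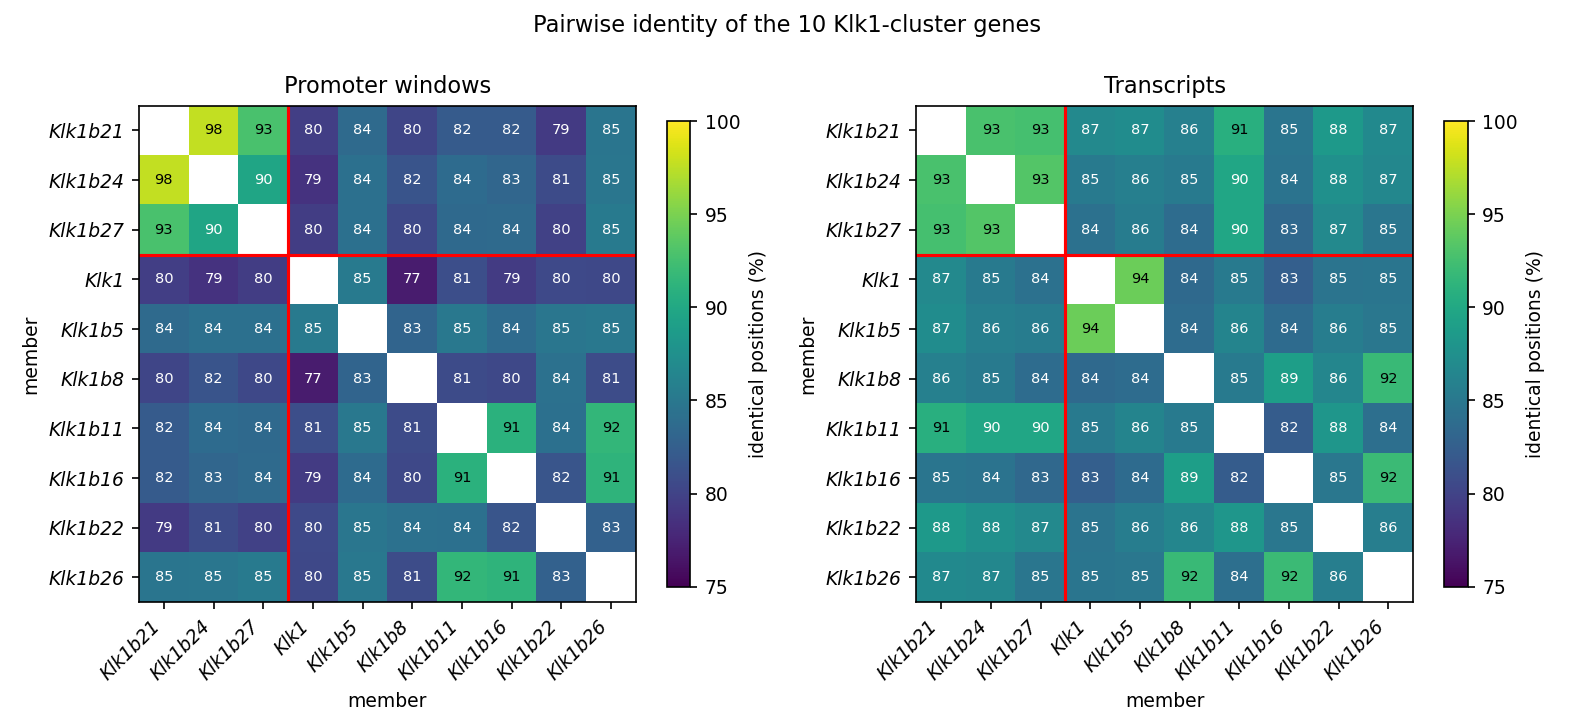
Percentage of identical aligned positions for every pair of the 10 genes, in the promoter windows (left) and in the main transcripts (right), with the red lines setting Klk1b21, Klk1b24 and Klk1b27 apart from the other 7 members. In the promoter windows the 3 pairs inside the upper left block reach 89.7 to 97.7%, above the 78.7 to 85.3% of their pairs with other members. Promoter pairs among the other 7 members span 76.9 to 91.6%, so some of them exceed the lowest pair of that block. In the transcripts the highest value, 94.4%, is that of Klk1 with Klk1b5.

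Short motifs were looked for in the 250 upstream bases on both strands. The run TTTAAA, which resembles the core promoter element of many regulated genes, was in 8 of the 10 windows against 12.1% of all windows. It lay 31 bases before the start in Klk1b24 and 17 in Klk1b27, and it was absent from the windows of Klk1b21 and Klk1. In the remaining members it lay 26 to 44 bases before the start. The window of Klk1b21 ends at chr7:44102291, while the deposited table starts this gene at chr7:44102328, and the bases between were not searched. The canonical form of the core promoter element, TATAAA, was in none of the 10 (12.4% of all windows). AGGTCA, the core element of the estrogen receptor and of related nuclear receptors, was in 7 of the 10 windows against 14% of all windows, and each of Klk1b21, Klk1b24 and Klk1b27 had more than 1 copy, as did Klk1. A match is a run of letters in this window and not a bound site, and the members' windows are related by descent.

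Reads counted on genes totalled 14819273 to 16026544 in the controls and 14816146 to 16555549 in the T + E2 mice, and 19274 to 19757 genes were detected per mouse. A count of 3, used as the limit of detection for 1 library, was worth 0.182 to 0.207 CPM (counts per 1000000 of the library total after TMM scaling, a correction for library composition). Such limits and the intervals below cover counting error only, because reads without molecular identifiers are not independent molecules. Marker transcripts of the seminal vesicle, which lies against the prostate, summed to 10310 CPM in CON 2 and 642 CPM in T + E2 2, against at most 4.1 CPM in the other 4 mice. The 11 prostate markers summed to 34460 to 47540 CPM in the CON group and 6436 to 8437 CPM in the T + E2 group, with Pbsn and Tgm4 called lower, and the part of this difference in the results on the cluster was not tested. Of 15580 genes with enough counts for the edgeR test, 1191 (7.64%) were called, meaning that the adjusted p was below 0.05 with a log2 fold change beyond 1 in either direction, with 665 (4.27%) higher and 526 (3.38%) lower in the T + E2 group.

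Klk1b24 had 11, 14 and 14 counts in the controls and 456, 540 and 380 counts in the hormone-treated mice. This corresponded to 0.728, 0.918 and 0.879 CPM against 31.5, 32.8 and 25.3 CPM, so every T + E2 mouse was above every CON mouse, as was the case for 20.1% of all tested genes, and the values within a group lay close together. The group means were 0.842 ± 0.101 CPM in the CON group and 29.9 ± 4.01 CPM in the T + E2 group (SD, n = 3). The log2 fold change was 5.14 with a standard error of 0.18 and an adjusted p of 4.56e-06 (edgeR, quasi-likelihood test). As a ratio of summed counts per TMM-scaled total, Klk1b24 was 35.6-fold higher (exact 95% counting interval 25.9 to 50.2). Ordered by mean FPKM, Klk1b24 stood at place 12151 of 21109 genes above 0 in the CON group and at place 1117 of 21217 in the T + E2 group. In bulk tissue, fewer cells of a type and less RNA per cell cannot be told apart, here as in every comparison that follows.

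Klk1b27 had 0, 2 and 0 counts in the controls and 33, 45 and 42 in the hormone-treated mice, or 2.28, 2.74 and 2.80 CPM in the latter. The ratio of summed counts per total was 60.5, and with 2 counts in the CON group its interval ran from 16.4 to 505. Klk1b21 had 1, 0 and 0 counts in the controls and 23, 47 and 24 in the hormone-treated mice, or 1.59, 2.86 and 1.60 CPM. Its ratio was 94.8, and with 1 count in the CON group the interval ran from 16.6 to 3782. The groups did not overlap for either gene. Both passed the edgeR test, with an adjusted p of 0.000805 for Klk1b27 (log2 fold change 5.67, standard error 0.63) and of 0.000977 for Klk1b21 (log2 fold change 6.09, standard error 0.71). The fitted fold changes of these 2 genes depend on the small constant added to the CON counts. The intervals of the 3 ratios overlap, so no order among the 3 increases can be read from them.

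**Figure D2:**
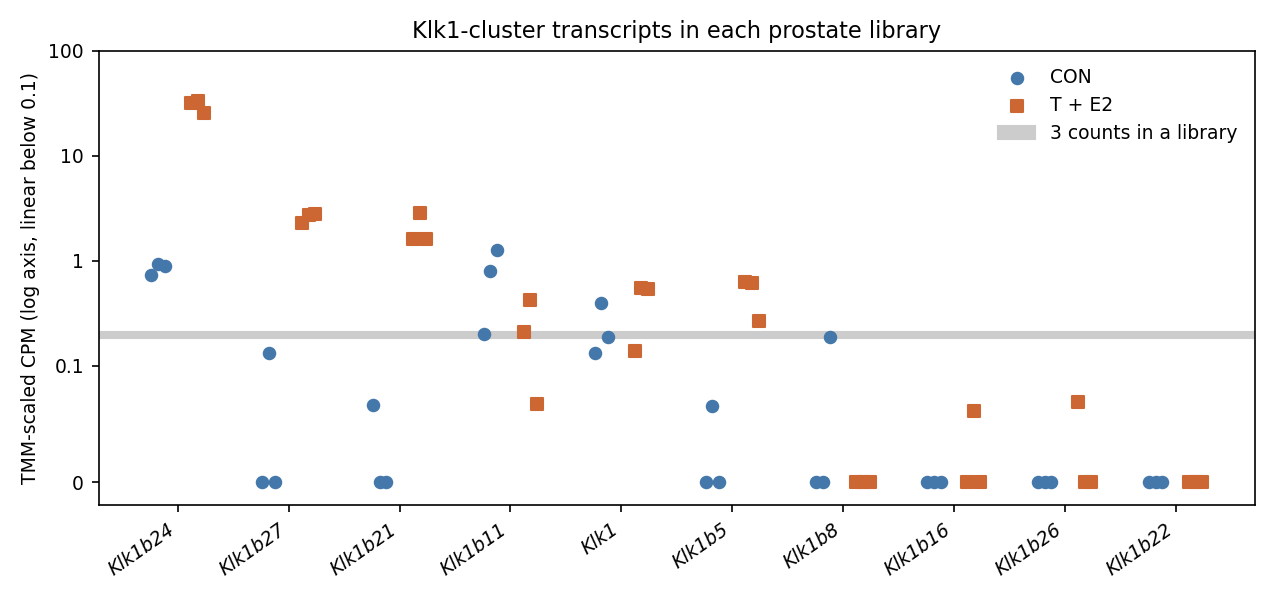
TMM-scaled CPM of the 10 genes in each of the 6 mice, on a log axis that is linear below 0.1, with CON mice as blue circles and T + E2 mice as orange squares, and a grey band where 3 counts lie in these libraries. Klk1b24, Klk1b27, Klk1b21 and Klk1b5 do not overlap between the groups, Klk1b11 and Klk1 do, and the last 4 genes sit at or near 0.

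Klk1b5 had 0, 1 and 0 counts in the controls and 9, 10 and 4 in the hormone-treated mice. All T + E2 values were above all CON values, and the ratio was 23.2 (3.77 to 955). Klk1b5 had too few counts for the main test. Without the filter on low counts it was called, with a log2 fold change of 4.09 and an adjusted p of 0.0219 in edgeR. With limma on log2(FPKM + 0.1) it was also called (log2 fold change 1.93, adjusted p 0.0109), but with limma on log2(FPKM + 1) it was not (log2 fold change 0.41, adjusted p 0.0189).

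Klk1, the kinin-releasing enzyme that gives the cluster its name, had 2, 6 and 3 counts in the controls and 2, 9 and 8 in the hormone-treated mice. The groups overlapped, and the ratio of 1.74 had an interval from 0.787 to 4.05, so a moderate change in either direction could not be seen at this depth. Klk1b11 had 3, 12 and 20 counts in the controls and 3, 7 and 1 in the hormone-treated mice. Its ratio was 0.317 (0.145 to 0.638 from counting error alone), yet CON 1 was as low as the T + E2 mice, and without the filter on low counts the adjusted p was 0.204 at a log2 fold change of -1.63.

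Klk1b8 had 3 counts in CON 3 and none in the other 5 mice. Klk1b16 had 1 count in T + E2 2, Klk1b26 had 1 count in T + E2 1, and Klk1b22 had none in any mouse. Each of these 4 genes was at or under the limit of 3 counts in every mouse, and no fold change was formed for them. Their levels in either group were thus not detectable beyond about 0.2 CPM.

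Of the 10 members, 3 had enough counts for the test and all 3 were called higher in the T + E2 group, against 4.27% of all tested genes. That count carries no weight as a share of members, since Klk1b21 and Klk1b27 reached the filter only through the group in which they were high, while Klk1b24 would have passed it on the CON mice alone.

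Counts summed over the 10 genes were 17, 35 and 40 in the controls and 527, 659 and 459 in the T + E2 mice, which is 1.12, 2.30 and 2.51 CPM against 36.4, 40.1 and 30.6 CPM. On the log2 scale the ratio of the group means was 4.17. Klk1b24 supplied 64.7%, 40% and 35% of the summed counts in the controls and 86.5%, 81.9% and 82.8% in the T + E2 mice. The lower shares in CON 2 and CON 3 went with the 12 and 20 counts of Klk1b11 in those mice. The shares in the controls rest on few counts, and Klk1b11 overlapped between the groups. Whether the groups differ in which members supply the sum was not tested. Among the counts of Klk1b24, Klk1b27 and Klk1b21 alone, Klk1b24 took 92.9% in the CON group (39 of 42, exact 95% interval 80.5 to 98.5%) and 86.5% in the T + E2 group (1376 of 1590, 84.8 to 88.2%), and these intervals overlap.

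**Figure D3:**
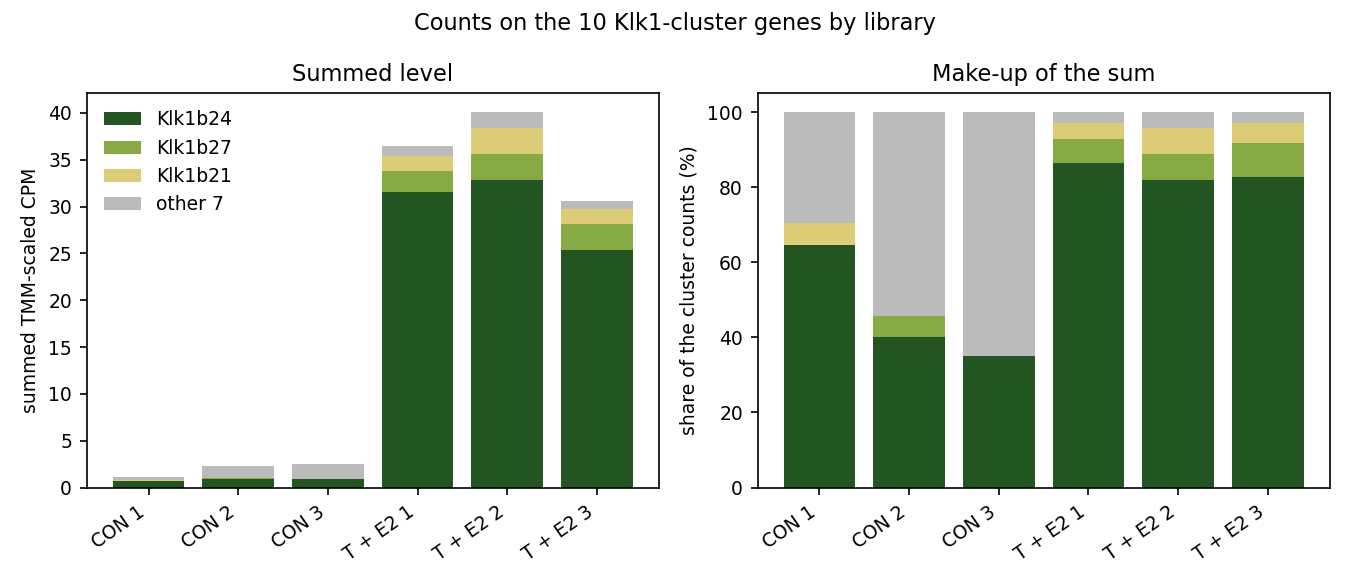
TMM-scaled CPM summed over the 10 genes (left) and the share of each gene in the counts of the cluster in percent (right) for each of the 6 mice, with bars divided into Klk1b24, Klk1b27, Klk1b21 and the other 7 genes. The T + E2 mice reach 30.6 to 40.1 CPM against 1.12 to 2.51 CPM in the controls, and Klk1b24 fills 81.9 to 86.5% of the T + E2 bars.

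Per transcript length, in FPKM, Klk1b24 stood above every other member in the T + E2 group, at 33.6 ± 4.02 (SD, n = 3). Klk1b27 at 2.90 ± 0.393 and Klk1b21 at 2.29 ± 0.843 followed, and their values overlapped between mice. Klk1b5 at 0.352 ± 0.137, Klk1 at 0.283 ± 0.165 and Klk1b11 at 0.266 ± 0.208 came lower, with values that overlapped among them. In the CON group Klk1b24 at 0.971 ± 0.116 FPKM and Klk1b11 at 0.872 ± 0.608 FPKM were not separated, and Klk1 followed at 0.169 ± 0.0998 FPKM.

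How reads that match more than 1 place were counted is not given in the sources used here, and the members resemble each other. Of all 50-base windows of the Klk1b24 transcript, 66.1% occur in no other annotated transcript, and the share was 66.1 to 89.9% over the 10 genes. At 100 bases the share was 97.4% for Klk1b24 and 93.9 to 100% over the 10 genes, and at 150 bases every window of all 10 genes was unique. The longest identical run that Klk1b24 shares is 117 bases with Klk1b21 and 106 with Klk1b27, and Klk1 and Klk1b5 share one of 145 bases. In the T + E2 mice the counts of Klk1b21 were 4.49%, 7.44% and 5.38%, and those of Klk1b27 6.45%, 7.12% and 9.42%, of the sum of the 3 genes. Whether some counts of Klk1b21, Klk1b27 and Klk1b5 came from reads of Klk1b24 or of Klk1 was not tested.

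The genes around the cluster that are no kallikreins were read in the same fit. Within 300 kb on either side and between the members lie 46 such genes, of which 11 had enough counts for the test. By edgeR 0 of the 11 were called, as by DESeq2, and 3 had an unadjusted edgeR p below 0.05, with log2 fold changes from -1.36 to 0.60 and a median of -0.03. The same span holds 27 kallikrein genes and pseudogenes other than the members, of which 16 had no count in any mouse. The 6 Klk1b genes and pseudogenes that were followed beside the members had at most 2 counts in any mouse, and 4 of them had none. Of the 12 genes from Klk4 to Klk15, only Klk8 could be tested, and its 15, 13 and 16 counts in the controls and 12, 19 and 14 in the hormone-treated mice gave a log2 fold change of 0.04 (edgeR, adjusted p 0.943).

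**Figure D4:**
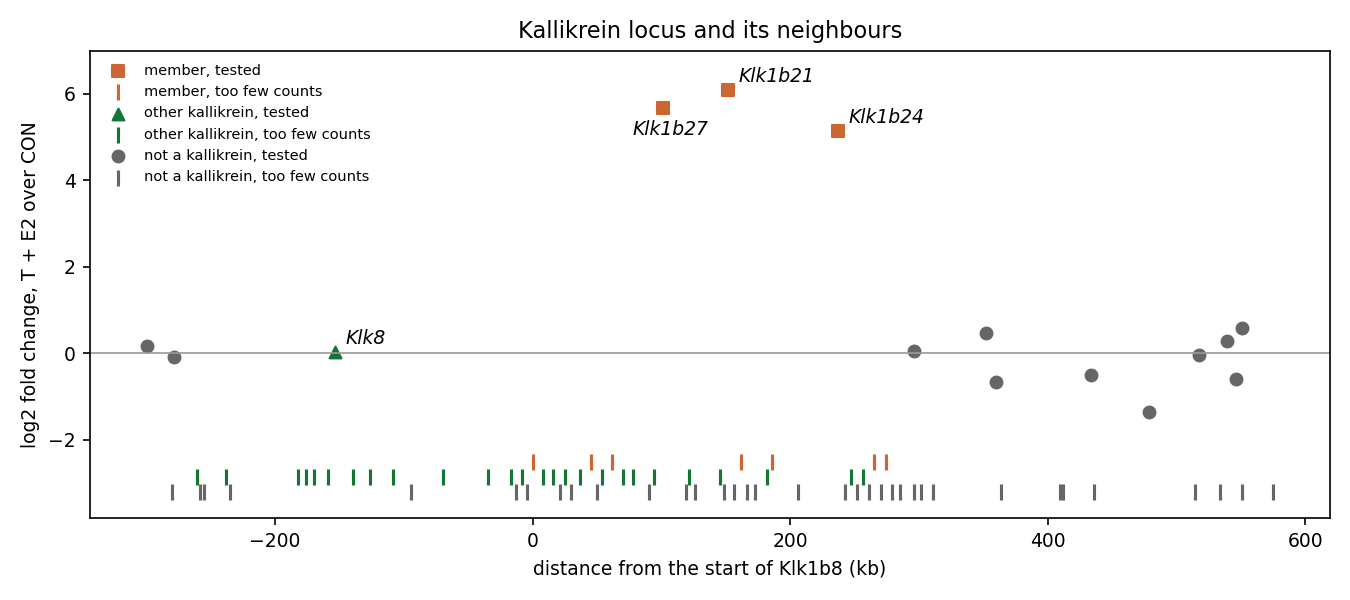
Log2 fold change (T + E2 over CON) of tested genes against their distance in kb from the start of Klk1b8, with members as orange squares, the other kallikrein as a green triangle and other genes as grey circles. Ticks along the bottom mark genes with too few counts. The 3 tested members sit between 5.14 and 6.09, and no other tested gene of the region is above 0.60.

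Genes of the kinin system, on which Klk1 acts, were followed as a fixed list of 17, of which 11 could be tested. Of these 3 were called higher in the T + E2 group and none lower, against 4.27% and 3.38% of all tested genes, and the median log2 fold change was 0.18 against -0.002 for all tested genes. Cpn1, 1 of the 3, reached the filter only through the T + E2 mice. Cpn1, the catalytic chain of carboxypeptidase N, which trims kinins in plasma, had 0, 0 and 1 counts in the controls and 27, 27 and 26 in the hormone-treated mice (log2 fold change 5.88, edgeR adjusted p 0.000561). Cpn2, the other chain of that enzyme, had no count in any mouse. Cpe, a carboxypeptidase of peptide hormone processing, rose from 89.0 ± 6.14 to 526 ± 22.6 CPM (log2 fold change 2.56, standard error 0.10). Prcp, a carboxypeptidase that cuts angiotensin and prekallikrein, rose from 13.4 ± 1.59 to 59.6 ± 12.7 CPM (log2 fold change 2.15, standard error 0.17).

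Ace, the peptidase that inactivates bradykinin, was at 1060 ± 70.0 CPM in the CON group and 756 ± 90.9 CPM in the T + E2 group, a log2 difference of -0.49 that passed the adjusted p (edgeR, 0.0244), as 19.6% of all tested genes did, and not the fold threshold. The kininogens, from which kinins are cut, were near the limit of detection. Kng1 had 1 count in 1 mouse, and Kng2 had 0, 0 and 2 counts in the controls and 3, 7 and 0 in the hormone-treated mice. Of the bradykinin receptors, Bdkrb2 had 33, 24 and 26 counts against 30, 59 and 49 (log2 fold change 0.73, edgeR adjusted p 0.117), and Bdkrb1 had at most 6 counts in any mouse.

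Of 13 listed inhibitors of kallikreins and related proteases, 6 could be tested and 1 was called higher, against 4.27% of all tested genes, with a median log2 fold change of 0.45. Spink5, an inhibitor of the epidermal kallikreins, rose from 1013 ± 461 to 4117 ± 688 CPM (log2 fold change 2.02, edgeR adjusted p 0.00306). Spink1, a trypsin inhibitor, differed by 0.72 on the log2 scale (edgeR adjusted p 0.0252), under the fold threshold. Serpina3c and Serpina3n, serpins of the family that holds the kallikrein-binding protein, did not pass the test (adjusted p 0.785 and 0.162, edgeR).

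All 13 listed substrates and partners of kallikreins could be tested, with 1 called higher and 1 lower, against 4.27% and 3.38% of all tested genes, and a median log2 fold change of 0.08. Igf1, insulin-like growth factor 1, rose by 1.30 on the log2 scale (edgeR adjusted p 0.00277). Igfbp3, an insulin-like growth factor binding protein, changed by -1.06 (adjusted p 0.00331, edgeR). Igfbp5 (-0.88) and the protease-activated receptor F2rl1 (0.58) passed the adjusted p alone. Egf, which members of the cluster bind and process in the salivary gland, was at 881 ± 139 CPM in the CON group and 653 ± 117 CPM in the T + E2 group and did not pass the test (adjusted p 0.104, edgeR). Ren1, renin, had 1501 counts in CON 2, the mouse with the most seminal vesicle transcripts, and 5 to 18 counts in the other 5 mice.

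Of 12 androgen-regulated genes of the prostate, all of which could be tested, 1 was called higher and 2 lower, against 4.27% and 3.38% of all tested genes, and the median log2 fold change was 0.06. Pbsn, the secreted probasin of the mouse prostate, fell from 14160 ± 2219 to 1443 ± 269 CPM (log2 fold change -3.29, edgeR adjusted p 2.45e-05). Tgm4, the prostate transglutaminase that clots semen, fell from 23452 ± 4301 to 3126 ± 906 CPM (log2 fold change -2.91, edgeR adjusted p 0.000158). Msmb, a secreted prostate protein, rose by 1.10 (edgeR adjusted p 0.00122). Fkbp5 (0.95), Azgp1 (0.86), Spink1 (0.72) and Apof (0.43) passed the adjusted p alone, which Apof and Spink1 did not do under several alternatives.

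**Figure D5:**
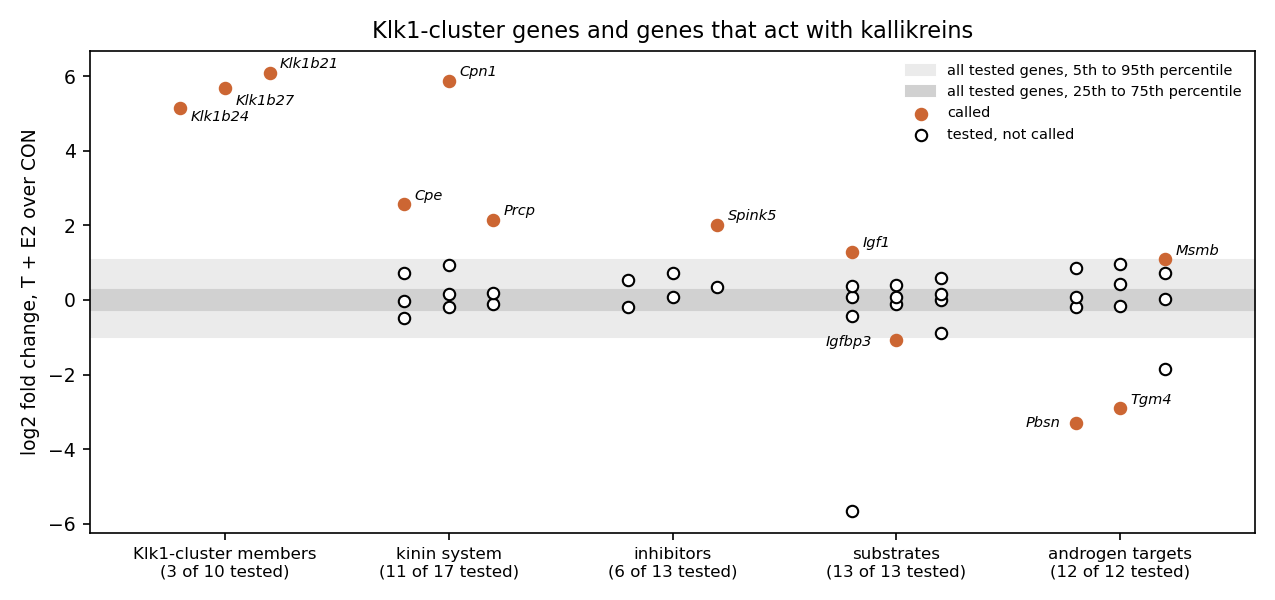
Log2 fold change (T + E2 over CON) of the tested genes of the cluster and of 4 lists, with called genes as filled orange points, other tested genes as open points and grey bands for the 5th to 95th and 25th to 75th percentiles of all 15580 tested genes. The 3 tested members sit at 5.14 to 6.09 with Cpn1 at 5.88 beside them, while the medians of the 4 lists lie between 0.06 and 0.45.

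Markers of other tissues were read beside these values. Of 9 Leydig cell markers, the steroid-producing cells of the testis from which Klk1b21, Klk1b24 and Klk1b27 are known, only Star could be tested and it did not pass. They summed to 1.90 to 2.20 CPM in the controls and 1.87 to 2.31 CPM in the T + E2 mice, and Hsd3b1, Hsd3b6 and Hsd17b3 were at 0 in every mouse. Of 12 salivary gland markers, 3 could be tested and 2, Smgc and Muc19, were called lower in the T + E2 group (3.38% of all tested genes). The spans of Smgc and Muc19 on chromosome 15 overlap, so these 2 calls are not independent. Amy1, also tested, did not pass (edgeR adjusted p 0.296). The list summed to 59.5 to 154 CPM in the controls and 19.1 to 22.9 CPM in the T + E2 mice. Smr3a, Bpifa2, Prb1 and Mucl2 were at 0 in every mouse. Smr2, a submandibular transcript regulated by androgens and too low for the test, had 1, 0 and 0 counts in the controls and 7, 43 and 12 in the hormone-treated mice.

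The 13 epididymis markers summed to 24.7 to 26.0 CPM in the controls and 33.9 to 40.4 CPM in the T + E2 mice. Nearly all of the sum in the controls was Adam28, at 25.9, 23.7 and 24.7 CPM, against 22.9, 35.2 and 27.9 CPM in the T + E2 mice. Adam28 did not pass the test (log2 fold change 0.21, edgeR adjusted p 0.361). Apart from Adam28 and Adam7, the listed genes had at most 13 counts in any mouse. Adam7, a gene of the epididymal epithelium, had no count in the controls and 158, 81 and 139 counts in the T + E2 mice (8.37 ± 3.10 CPM). Lcn5, Lcn8, Lcn9, Crisp4, Cst8, Rnase9 and Spag11a, which define the epididymis, were at 0 in every mouse. Of 6 urothelium markers 4 could be tested and 2, Upk1a and Upk2, were called higher (4.27% of all tested genes), Upk2 having reached the filter only through the T + E2 mice. The 6 markers summed to 423 to 642 CPM in the controls and 1373 to 1701 CPM in the T + E2 mice. Upk1a supplied most of these sums, with 273, 502 and 345 CPM in the controls and 1421, 1314 and 1178 CPM in the T + E2 mice. Upk3a, Upk3b and Krt20 were high in T + E2 2 alone, with 99, 145 and 120 counts. They had at most 5, 30 and 6 counts in any other mouse. The part of urothelial or epididymal transcripts in the increase of the cluster was not tested. The seminal vesicle markers, high in CON 2 and T + E2 2, stood at 4.01 and 1.67 CPM in T + E2 1 and T + E2 3. With CON 2 and T + E2 2 left out, a choice made after the data were seen, Klk1b24 kept a log2 fold change of 5.13 (edgeR adjusted p 0.000309), Klk1b27 had an adjusted p of 0.0082 and Klk1b21 of 0.0142, and the ratio of summed means was 4.20 on the log2 scale.

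Across the 6 mice, the log2 CPM of the summed cluster was followed most closely by Dscam (Pearson r 0.9986), Eppin (0.9984), Acer2 (0.9983), Ythdf3 (0.9983) and Prss53 (0.9975). The 6 points fall into the 2 groups, so any gene that differs strongly between the groups scores high, and 56 genes exceeded 0.99. Eppin, a protease inhibitor of the male tract that coats sperm, had 0, 2 and 5 counts in the controls and 258, 318 and 189 in the hormone-treated mice, with T + E2 2 the highest and T + E2 3 the lowest as in the summed cluster. Prss53, a serine protease, went from 12.3 ± 3.26 to 58.5 ± 7.65 CPM. Dscam, a cell adhesion molecule, went from 0.558 ± 0.259 to 7.23 ± 0.757 CPM. Acer2, a ceramidase, differed by 1.25 on the log2 scale, and Ythdf3, a reader of methylated RNA, by 0.61, so that a high correlation here says nothing of the size of the change.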

How the data were processed

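RNA of 3 CON and 3 T + E2 prostates was made into paired-end TruSeq libraries by the authors. The deposited table gives, per gene and mouse, raw read counts without normalization and FPKM. The FPKM were computed by the authors from count, gene length and library total, which was checked within a tolerance of 1% on 17095 of 17095 genes. The submitters' processing notes name Bowtie2, TopHat and HTSeq, with no version or role. The annotation, the strand setting and the treatment of reads with several matches are not given in the sources used here. Groups and replicate numbers came from the sample titles, and 0 columns belonged to no sample.

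The tests were run with edgeR 4.0.16 under R 4.3.3 (TMM, filterByExpr with a minimum count of 10 and a total of 15, quasi-likelihood test, two-sided, Benjamini-Hochberg adjustment over all 15580 tested genes). A gene was called when its adjusted p was below 0.05 and its log2 fold change beyond 1 in either direction, the thresholds of the study, whose own tool was DESeq2. Standard errors are the log2 fold change over the root of F, and the biological coefficient of variation was 18%. Log2 CPM used a prior count of 2. Counting intervals are exact 95% intervals (Clopper-Pearson, from the binomial share of the summed counts, scipy 1.17.1). With 3 against 3 mice an exact permutation test cannot go below 0.1. No 2 libraries agreed within sampling noise (chi-square per degree of freedom 16.7 to 36.4 within groups). No sequencing batch is given. The script was tested on simulated counts.

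Named genes are the 10 members, up to 4 called genes of each list with genes that passed the adjusted p alone where fewer were called, and the 5 genes most correlated with the summed cluster. Cpn2, Kng1, Kng2, Bdkrb1, Bdkrb2, Serpina3c, Serpina3n, Egf, Ren1, Klk8, Smr2, Amy1, Adam7, Adam28, Upk1a, Upk2, Upk3a, Upk3b, Krt20, Smgc, Muc19, Star and marker genes at 0 were named after their values were seen. Members and lists were chosen with earlier results of these data known. Promoters were RefSeq windows on GRCm38.p6, and transcripts were from GENCODE M21, aligned with biopython 1.88. Alternatives were DESeq2 1.42.0, limma 3.58.1 (on log2 FPKM with a pseudocount of 0.1 or of 1, for genes that reached an FPKM of 0.1 in 3 or more mice), other scalings and filters, no fold threshold, a replicate block and leaving out mice. Some genes of the lists are not reported here.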

Additional observations from a re-analysis of the deposited data

How the results depend on the processing

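Of 506 recomputed values, 483 kept their direction and side of the threshold (counts within 1.5 times), 10 newly passed the threshold, 6 no longer passed it, 7 moved and 0 reversed. Klk1b24, Klk1b27 and Klk1b21 were called in 16 of 16 alternatives each, with log2 fold changes of 4.13 to 5.24, 1.89 to 8.33 and 1.65 to 7.97, the lows coming from limma on log2(FPKM + 1), which understates low genes. Klk1b27 reached 8.33 without CON 2 and Klk1b21 7.97 without CON 1, the CON mice that hold all their CON counts. The summed cluster ranged from 3.89 to 4.38 over 10 alternatives. Members called higher were 4 in place of 3 without the low-count filter and with limma on log2(FPKM + 0.1). Over all genes, limma on log2(FPKM + 1) called 365 higher and 196 lower. With no fold threshold 1620 were higher and 1441 lower, and the pathway lists then held 11 higher (6 with the threshold) and 5 lower (3 with it). Without CON 2 and T + E2 2 together, 298 genes were lower, with fewer samples in the fit. With limma on log2(FPKM + 1), Cpn1 (0.52), Dscam (0.86), Acer2 (0.95) and Igfbp3 (-0.96) no longer passed the fold threshold, nor did Msmb without CON 1, at 0.99, nor did Igfbp3 without CON 3, at -0.86. Among genes that passed the adjusted p alone, Ace, Spink1 and Apof lost it in some fits, with values up to 0.0868, 0.0952 and 0.204, and Apof in each fit that left out 1 mouse (0.0509 to 0.149). Counts of at most 3 per mouse limit what can be said of Klk1b8, Klk1b16, Klk1b22 and Klk1b26.

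Samples with the same replicate number did not deviate together (correlations of -0.05, 0.03 and 0.05), so the numbers do not pair the mice. With the replicate block 598 genes were higher and 415 lower, 3 members were called higher and 0 lower, Klk1b24 was at 5.13, Klk1b27 at 5.69 and Klk1b21 at 6.07, and the block changed no call of a named gene, while Apof no longer passed the adjusted p (0.0696).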
